A study of Homo sapiens with 21 samples.

Results

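The cyclin-dependent kinase (CDK) inhibitor genes were examined for estrogen receptor beta (ER-beta) binding nearby. They are the 8 genes CDKN1A, CDKN1B, CDKN1C, CDKN2A, CDKN2B, CDKN2C, CDKN2D and CDKN3, of 20007 protein-coding genes in GENCODE 44. The genes were chosen with earlier results of these data known. An enriched region was counted for a gene when its summit lay within 50 kb of the gene body, a rule that used positions and no measured value. This gave 17 of 26861 estradiol regions, 7 of 10045 LY500307 regions and 3 of 2905 vehicle regions.

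Chromatin immunoprecipitation followed by sequencing (ChIP-seq) had been performed with an antibody against the Flag tag. The cells were MDA-MB-231, an established triple-negative breast cancer line, carrying a doxycycline-inducible ER-beta. All 3 groups, at passages 20-25 and in charcoal-stripped serum, received doxycycline (100 ng/ml, 24 h per the titles) and then, for 3 h, ethanol vehicle, 1 nM estradiol (the natural estrogen) or LY500307, an ER-beta-selective agonist. The dose of LY500307 is 10 nM in the sample characteristics and 1 nM in the titles. The labels give 4 ChIP and 3 input libraries to each treatment, while the protocol speaks of triplicates, and a treatment's ChIP libraries share a single list of regions. Spread between replicates therefore cannot be given for any value here, and treatments were not tested against each other. The lists were made separately, so folds of 1 site stand side by side and measure no change. The lists hold no expression, so the identity of the line was not checked, and cells without doxycycline were not analysed here.

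CDK inhibitors brake the cell cycle by binding the kinases that drive it. The CIP/KIP proteins p21 (CDKN1A), p27 (CDKN1B) and p57 (CDKN1C) bind complexes of cyclins with several CDKs. The INK4 proteins p16 (CDKN2A), p15 (CDKN2B), p18 (CDKN2C) and p19 (CDKN2D) bind CDK4 and CDK6 and so keep the retinoblastoma protein active. CDKN3 encodes a phosphatase that removes an activating phosphate from CDK2. ER-beta, a ligand-activated transcription factor, binds the estrogen response element (ERE), a palindrome of 2 half-sites written GGTCANNNTGACC, where N is any base.

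None of the regions near the 8 genes held an ERE with at most 1 mismatch within 100 bp of the summit, and the closest matches had 2. The 5 sites with such a match are printed because they include the 4 with the highest estradiol fold. Sequences are hg38, plus strand, 5′ to 3′, and capitals mark bases equal to the fixed bases of the ERE. The substitutions are counted from 1 at the 5′ end of the 13-base element, ERE base first.
CDKN1B, 43.9 kb upstream, chr12:12673400-12673440, T3A and A11C: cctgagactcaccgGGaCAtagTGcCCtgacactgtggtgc
CDKN1B, 3′ flank, chr12:12723719-12723759, G1A and A11T: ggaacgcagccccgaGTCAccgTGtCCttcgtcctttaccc
CDKN1A, intron 1, chr6:36679547-36679587, G1C and T3G: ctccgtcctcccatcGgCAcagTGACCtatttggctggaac
CDKN2D, 33.1 kb downstream of the start, chr19:10535782-10535822, G2A and T9G: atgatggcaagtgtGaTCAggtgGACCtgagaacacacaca
CDKN3, intron 1, chr14:54397524-54397564, G1T and A11C: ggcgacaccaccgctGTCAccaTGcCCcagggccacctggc

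A pair of further stretches of 61 bases around estradiol summits are shown for their other letters. The first holds 2 half-sites in the same orientation, and the second a GC box, the GC-rich element of SP-family factors, in a CDKN2C promoter. Capitals mark half-sites (GGTCA or TGACC) and GC boxes (GGGCGG or CCGCCC).
CDKN1A, 17.7 kb upstream, chr6:36660948-36661008: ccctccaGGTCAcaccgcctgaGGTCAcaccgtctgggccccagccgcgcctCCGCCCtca
CDKN2C, promoter, chr1:50968208-50968268: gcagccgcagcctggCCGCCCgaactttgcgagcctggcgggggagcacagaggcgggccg

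With estradiol 6 of the 8 genes had a region, CDKN1A, CDKN1B, CDKN1C, CDKN2C, CDKN2D and CDKN3, against 74.5% of all protein-coding genes. With LY500307 the 4 genes were CDKN1A, CDKN1B, CDKN2D and CDKN3 (background 49.2%), and with vehicle the 3 were CDKN1A, CDKN1B and CDKN3 (background 22.8%). For 8 genes the 95% Wilson intervals run from 40.9% to 92.9%, from 21.5% to 78.5% and from 13.7% to 69.4%, and each holds its background. CDKN2A and CDKN2B had no region in any list. The number of estradiol regions was 4 for CDKN2C, 3 each for CDKN1A, CDKN1B and CDKN3, and 2 each for CDKN1C and CDKN2D. Among all protein-coding genes, 22.6% had more than the 4 of CDKN2C.

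Every LY500307 and vehicle region near the 8 genes overlapped an estradiol region, so the 27 regions form 17 sites. In the whole lists 91.9% of LY500307 regions and 87% of vehicle regions did so. Of the 17 sites, 3 were in all 3 lists, 3 were in the estradiol and LY500307 lists, and 11 were in the estradiol list alone. These shares of the estradiol regions were 64.7% in no other list, against 64.9% of the whole list, and 17.6% in all 3 lists (Wilson 6.19% to 41%), against 8.01%. The 6 estradiol regions shared with LY500307 had the 6 highest folds, from 12.6 upward, and the other 11 ran from 4.03 to 11.5. The whole list has the same order: 89.5% of its regions in the highest 25% by fold were shared with LY500307, and 9.78% of those in the lowest 25%. In the whole list 33.8% of estradiol regions were shared with LY500307, near the 6 of 17 here (35.3%, Wilson 17.3% to 58.7%).

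**Figure D1:**
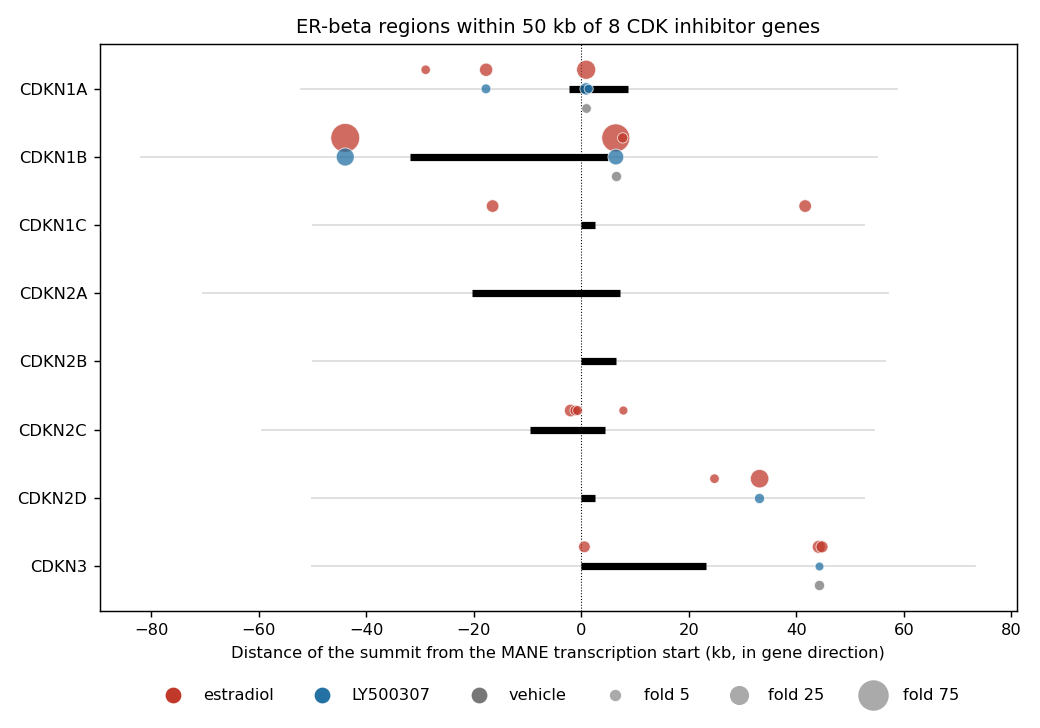
Position of every region, as the distance of its summit from the start of the MANE transcript, the reference transcript, in kb along the gene's direction (horizontal axis), for each gene (rows). Circles are regions with area growing with fold (estradiol above, LY500307 on and vehicle below the line), black bars are gene bodies and grey lines the 50 kb windows; CDKN1B carries the 2 largest circles and CDKN2A and CDKN2B carry none.

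CDKN1B had the strongest sites. Upstream, 43.9 kb before its MANE start and in intron 3 of GPR19, an orphan receptor gene, an estradiol region (chromosome 12, 12673166 to 12673622) had a fold enrichment over local background of 76.1, as the authors' peak caller gave it. This was rank 1162 of 26861, with a -log10 q of 340.1. The LY500307 region there had a fold of 27.5, rank 1123 of 10045, with its summit 1 bp from the estradiol summit. No vehicle region overlapped this site, and the nearest vehicle summit was 50.4 kb away. The nearest start to the site was that of GPR19, 11.1 kb away.

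The other strong CDKN1B site lay 1.39 kb past the 3′ end of the gene body (12723530 to 12724079), and its nearest start, 2.17 kb away, was that of APOLD1, an endothelial early response gene. Its fold was 71.5 with estradiol (rank 1313), 20.3 with LY500307 (rank 1743) and 6.22 in the vehicle list (rank 1788 of 2905). The -log10 q values were 266.2, 69.8 and 7.04, and the 3 summits lay within 46 bp of each other. Both strong sites held 1 half-site and no GC box, and their GC contents were 48.3% and 63.7%. A weak estradiol region (12724863 to 12725177), fold 6.50 and -log10 q 7.43, lay in the APOLD1 promoter. The CDKN1B promoter itself, around the MANE start, held no region. Of the RefSeq promoter windows (GRCh38.p14, 250 bp before to 50 bp after a start), 10 belonged to 7 of the 8 genes. Estradiol regions overlapped 2 of them, the CDKN1A window and a CDKN2C window, both only at an edge. No LY500307 or vehicle region overlapped any. The CDKN1A region began at 36678725 and its window ended at 36678763. The CDKN2C region ended at 50968488 and its window began at 50968456, and the 6 GC boxes of that window lay outside the overlap. Of all 35116 RefSeq windows, estradiol regions overlapped 12%, LY500307 regions 3.37% and vehicle regions 1.22%, and 45% of the windows held a GC box.

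**Figure D2:**
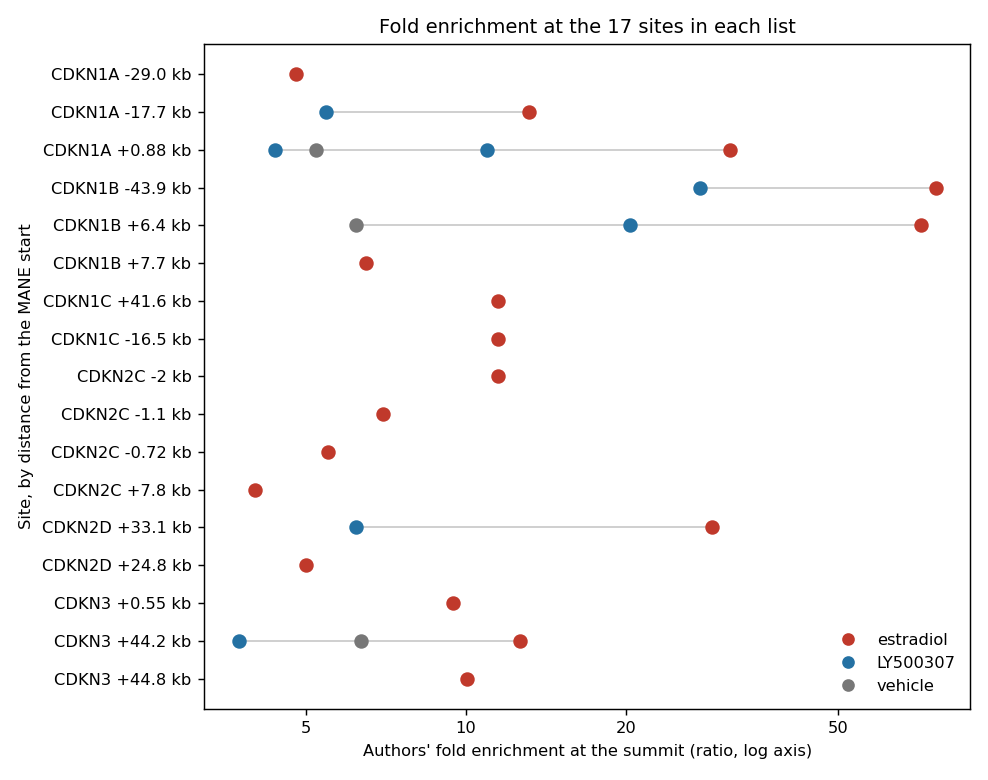
The authors' fold enrichment at the summit (horizontal log axis) for each of the 17 sites (rows, named by gene and distance from the MANE start), with 1 point per region and a colour per list. At every site in several lists the estradiol point has the highest fold, but the lists were scaled separately; the CDKN1A +0.88 kb site has 2 LY500307 points because 2 of its regions lie in 1 estradiol region.

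CDKN1A, the p21 gene and a classical target of p53, had its strongest region over intron 1 (chromosome 6, 36678725 to 36680195). The summit was 882 bp after the MANE start. The fold was 31.2 with estradiol (rank 4081), 10.9 with LY500307 (rank 3741) and 5.22 in the vehicle list (rank 2429). The -log10 q values were 150.3, 39.7 and 12, and the 1471 bp of the estradiol region made it the widest of the 17. A second LY500307 region in the same intron had a fold of 4.38 (rank 9750). The site 17.7 kb upstream, with the repeated half-site, had a fold of 13.1 with estradiol (rank 9936) and 5.47 with LY500307 (rank 8568), and no vehicle region. The last estradiol region (36649650 to 36649871), 29.0 kb upstream, was among the weakest of the list, with a fold of 4.79 and rank 25633. All 3 CDKN1A sites had CDKN1A as their nearest protein-coding gene by start site.

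The CDKN1A regions stood on a high local background. The deposited fold and p of a ligand region together give the pileup of fragments at the summit and the background used. A whole-number pileup solved the pair at all 24 ligand regions. Backgrounds at the 3 estradiol regions of CDKN1A were 3.17, 3.72 and 3.10 fragments, against a median of 1.24 over the list, where 4.02% of regions had 3 or more. With LY500307 they were 3.94, 4.30 and 6.54, against a median of 1.65, and 12.7% of that list had 3 or more. The LY500307 region at CNIH1, counted for CDKN3, also had a background above 3, at 3.27. The lowest background in the estradiol list was 1.00. At or very near that floor were 22.7% of the list and 8 of the 17 regions here, so 1.00 is a minimum shared by many regions. The intron 1 pileup was 127 fragments with estradiol and 57 with LY500307. The part of the background in these folds was not tested.

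**Figure D3:**
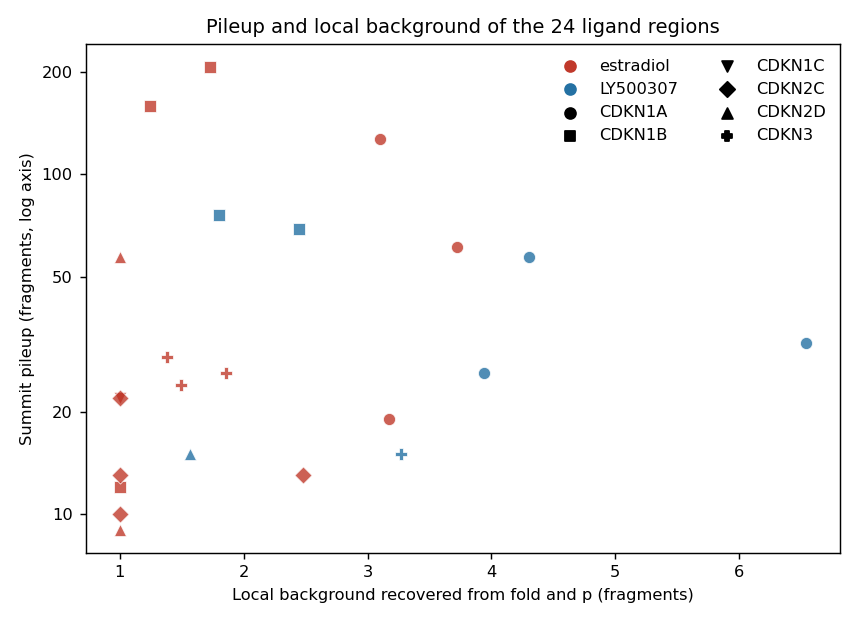
Summit pileup in fragments (vertical log axis) against local background in fragments (horizontal axis) for the 17 estradiol (red) and 7 LY500307 (blue) regions, with a marker shape per gene. The CDKN1A circles lie at backgrounds of 3.10 and above, and the 2 red CDKN1B squares at the top have pileups of 207 and 159.

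CDKN1C, the imprinted p57 gene, had estradiol regions only, and neither was in the gene. One lay in intron 15 of the potassium channel gene KCNQ1 (chromosome 11, 2844019 to 2844289), 41.6 kb past the CDKN1C start. The other covered the promoter of the transporter gene SLC22A18 (2902139 to 2902447), 16.5 kb upstream of CDKN1C. Both had a fold of 11.5 from a pileup of 22 fragments over a background of 1.00, a fold that 95 estradiol regions share. The KCNQ1 one was the 1 estradiol region of the 17 with an AP-1 element (TGACTCA or TGAGTCA), the site of FOS and JUN proteins, against 13.8% of the whole list.

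Of the INK4 genes, CDKN2C had 4 estradiol regions, 3 of them grouped at its internal starts. The strongest (chromosome 1, 50968085 to 50968488) had its summit 468 bp before the start of a coding transcript and again a fold of 11.5. The next (50968905 to 50969280) had a fold of 7, with its summit in a 5′ UTR exon of a transcript other than MANE. Another (50969361 to 50969666), fold 5.50, had its summit 721 bp before the MANE start, in the promoter. The last (50977853 to 50978151), 3.42 kb past the gene, had a fold of 4.03 and rank 26554. No LY500307 or vehicle region lay within 50 kb of CDKN2C, and the nearest vehicle summit was 1164 kb away.

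CDKN2D had an intergenic site 33.1 kb past its start (chromosome 19, 10535666 to 10535993), nearest to the start of ATG4D, a protease gene of autophagy. The fold was 29.0 with estradiol (rank 4441) and 6.23 with LY500307 (rank 7511). A weaker estradiol region (10544062 to 10544316), fold 5.00, lay in the ATG4D promoter, 57 bp before the start. The intergenic site and CDKN1A intron 1 had similar folds with estradiol, but a pileup of 57 over a background of 1.00 stood behind the first and 127 over 3.10 behind the second. The -log10 q values were 75.3 and 150.3.

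CDKN3 had 1 estradiol region of its own, in intron 1 (chromosome 14, 54397364 to 54397665), 547 bp after the MANE start, with a fold of 9.45 (rank 13567). The other regions counted for it lay at the 5′ end of the neighbouring CNIH1, a gene for a cargo receptor of the secretory pathway. One site there was in all 3 lists (54440905 to 54441396), where the estradiol fold was 12.6 (rank 10279), the LY500307 fold 3.75 (rank 9968 of 10045) and the vehicle fold 6.36 (rank 1761). The LY500307 region there was near the bottom of its list, with a -log10 q of 3.42. The other site (54441632 to 54441879) was in the CNIH1 promoter, with an estradiol fold of 10.1. Within 100 bp of the summit, the closest ERE match at the CNIH1 site of all 3 lists had 4 mismatches, against 2 in the CDKN3 intron.

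CDKN2A and CDKN2B, adjacent on chromosome 9, lay in a long stretch without regions. The nearest estradiol summits were at 20684687 and 25994662, near FOCAD and TUSC1, which leaves 5310 kb between them. Of 26838 distances between neighbouring estradiol summits, 19 were at least as long (0.0708%), and the median was 26.8 kb. Each distance counts once there, whereas a stretch picked because it holds a given gene is more likely to be a long one. The 0.0708% is therefore not the probability that a gene lies in such a stretch. The LY500307 stretch was 5581 kb long, with 34 of 10022 distances in that list at least as long (0.339%) and a median of 78 kb. The vehicle stretch was 30335 kb long, with 3 of 2881 distances at least as long (0.104%) and a median of 333 kb. The same limit holds for these shares. The estradiol stretch held 25 protein-coding genes, among them MTAP, IFNB1 and IFNA1. MDA-MB-231 is known from outside these data to have lost CDKN2A by homozygous deletion. Copy number was not analysed here, so a missing locus and a locus without binding cannot be told apart.

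**Figure D4:**
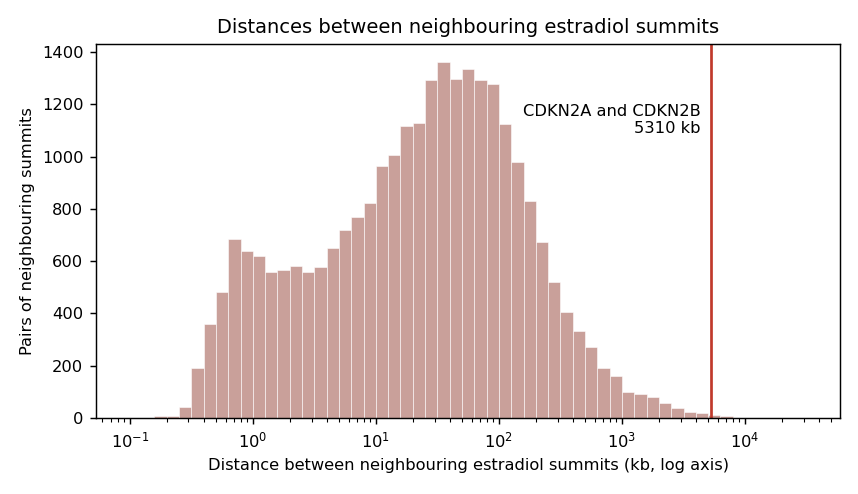
Histogram of the distances between neighbouring estradiol summits on a chromosome (horizontal log axis, kb) with the number of pairs (vertical axis). The vertical line is the 5310 kb stretch around CDKN2A and CDKN2B, at the far right of the distribution.

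Against the whole lists, the estradiol regions near the 8 genes were spread over all strengths. Their median fold was 11.5 against 9.50 for the list, and 4 of 17 were in the highest 25%. The 7 LY500307 regions had a median fold of 6.23 against 8.46, and the 3 vehicle regions 6.22 against 7. Summits in a promoter were 6 of 17 with estradiol (35.3%, Wilson 17.3% to 58.7%) against 16.4%. With LY500307 they were 1 of 7 (14.3%) against 14%, and with vehicle 0 of 3 against 19.2%. The estradiol ones were the promoters of APOLD1, SLC22A18, ATG4D and CNIH1, and 2 of CDKN2C. The whole lists are not limited to regions within 50 kb of a protein-coding gene, so these backgrounds are not matched for that rule.

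**Figure D5:**
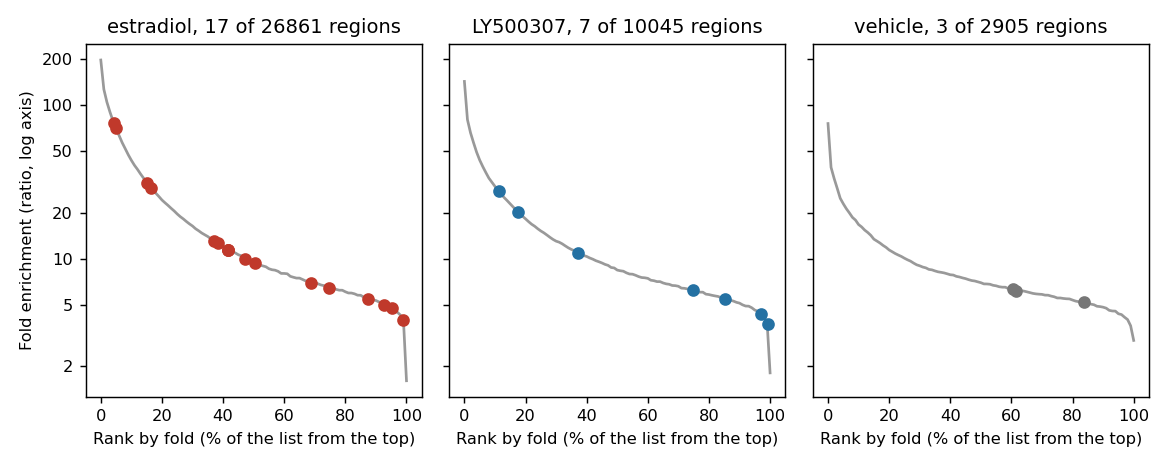
Fold enrichment (vertical log axis) against rank by fold as a percent of the list from the top (horizontal axis), for each list. Grey lines are whole lists and points are the regions near the 8 genes: 2 estradiol points lie in the top 5%, and all 3 vehicle points lie below the vehicle median fold of 7.

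The DNA under these summits was GC-rich. The median GC content within 100 bp of the summits was 69.2% with estradiol, against 54.7% for the list, and 13 of the 17 were at or above the list's median. It was 68.7% against 54.2% for LY500307 and 69.2% against 57.7% for vehicle. The whole lists are not matched to these regions for closeness to genes or promoters. The part of that closeness in the GC and motif shares was not tested. GC boxes were in 8 of 17 estradiol windows (47.1%, Wilson 26.2% to 69.0%) against 20.8%. Half-sites were also in 8 of 17 (47.1%, Wilson 26.2% to 69.0%), against 71.2%. Neither interval holds its list share. With LY500307, GC boxes were in 2 of 7 windows (28.6%) against 18.7% and half-sites in 5 of 7 (71.4%) against 71.6%. In the vehicle list they were in 1 of 3 (33.3%) against 26.7% and in 2 of 3 (66.7%) against 59.4%. An ERE with at most 1 mismatch was in 0 of 17 estradiol windows, which allows up to 18.4% by the Wilson interval, against 13.8% of the list. It was in 0 of 7 LY500307 windows (list 15.7%) and 0 of 3 vehicle windows (list 15.0%). With at most 2 mismatches it was in 5 of 17 estradiol windows (29.4%, Wilson 13.3% to 53.1%) against 44.6%. The other lists lay on the other side of their backgrounds, with 4 of 7 LY500307 windows (57.1%) against 46.9% and 2 of 3 vehicle windows (66.7%) against 39.8%. The elements in those windows were the same ones as at the estradiol sites, so the lists differ in which sites they hold and are not independent here. All 4 of the highest estradiol folds had such an element, and 1 of the remaining 13 did, the CDKN3 intron. In the whole estradiol list this share was 61.4% in the highest 25% by fold and 24% in the lowest 25%. Intervals cover counting error only, and regions of 1 gene share their surroundings.

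The farthest region counted lay 39.1 kb from a gene body. Just outside the 50 kb limit were a site 52.5 kb from CDKN1A (fold 16.1 with estradiol, 6.05 with LY500307) and an estradiol region 54.2 kb from CDKN2D with a fold of 22.8. Stronger sites stood further out: SLC44A2, 56.4 kb from CDKN2D, had a promoter region with an estradiol fold of 109.5, and KEAP1, 79.7 kb from it, one of 121.3 in a coding exon. The SLC44A2 site also had an LY500307 region (fold 34.5), and the KEAP1 site was in all 3 lists (LY500307 47.1, vehicle 11.3). At CPNE5, 82.4 kb from CDKN1A, an intron site was likewise in all 3 lists, where the estradiol fold was 84.9, the LY500307 fold 41.7 and the vehicle fold 16.1.

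The partners of the inhibitors were read by the same rule, over 18 genes for CDKs, cyclins, retinoblastoma proteins, E2F factors and regulators of the inhibitors. With estradiol 16 of 18 had a region (88.9%, Wilson 67.2% to 96.9%), against 74.5% of all protein-coding genes. With LY500307 13 had one (72.2%, 49.1% to 87.5%), against 49.2%. With vehicle 7 had one (38.9%, 20.3% to 61.4%), against 22.8%. All of these shares lay above their backgrounds. Each interval holds its background, the LY500307 one only just. The highest estradiol folds were 115 near RBL2, a retinoblastoma family gene, and 106 near CDK4, the kinase that INK4 proteins bind. CDK4 had an LY500307 region (fold 39.1) and no vehicle region. CCND1, a D-type cyclin gene, had 8 estradiol regions, and CCND2 and CCNE2 had none in any list.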

How the data were processed

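Per the submitters' processing notes the genome build was hg38, and the tools include MACS2 (2.1.1.20160309), Bowtie2 (2.2.6) and DiffBind, whose roles are not stated. The deposited lists, 1 per treatment and in narrowPeak format, were read as pools of the ChIP libraries. The fold ratio, -log10 p, -log10 q and display score of each region are the authors' deposited values; the score was not used. Read totals are unknown.

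Records outside the autosomes and the sex chromosomes were dropped, and positions were made 1-based. Ranks are by fold within a list. Regions were shared when they overlapped by 1 bp or more. Promoters ran from 1000 bp before to 100 bp after a coding start (GENCODE 44). Motifs were sought on both strands. Pileup k and background m solve fold = (k + 1)/(m + 1) and the Poisson tail above k, within 0.0005 of the deposited -log10 p. This was not done for vehicle. Motif search and recovery were tested on simulated data. The simulated pileups and backgrounds spanned a narrower range than the lists. All simulated backgrounds lay below those of the CDKN1A regions, so recovery at such backgrounds was not tested.

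No test was run, since each treatment has 1 list. The members and lists of genes were chosen with earlier results of these data known. Named regions were those of highest fold per gene and list, all vehicle and LY500307 regions, any with an ERE of at most 1 mismatch and those in member promoters; the remaining ones were few and were named too. Python 3.11.15, numpy 2.4.6, pandas 2.3.3, scipy 1.17.1 and statsmodels 0.14.6 were used.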

Additional observations from a re-analysis of the deposited data

How the results depend on the processing

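Of 85 alternative values, 21 were labelled as moved and 64 were not. The 64 include some that changed, such as the estradiol rank of CDKN1A (4081 by fold, 2769 by -log10 q). They also include ERE shares that stayed at 0. Within 20 kb the estradiol regions were 11 and the genes with an LY500307 region 2. Within 100 kb the estradiol regions were 40, the LY500307 regions 18 and the vehicle regions 5, and 17 and 5 of the estradiol regions overlapped LY500307 and vehicle regions. Counting a region only where the nearest start was that of one of the 8 genes left 9, 3 and 1 regions in that order. It left 4 genes with an estradiol region, and CDKN1B, which had the strongest sites, was not among them. It left 1 gene with an LY500307 region and 1 with a vehicle region, CDKN1A. With the 2905 strongest regions of each list, 2 estradiol and 2 LY500307 regions remained, at 1 gene each, CDKN1B. With 50% of both regions required to overlap, 1 estradiol region was shared with vehicle. At most 2 ERE mismatches gave 29.4% with estradiol, 57.1% with LY500307 and 66.7% with vehicle, against 44.6%, 46.9% and 39.8% of the whole lists. Ranked by -log10 q, the vehicle region of CDKN1A moved from 2429 to 1331. No alternative with at most 1 ERE mismatch gave an element, apart from estradiol within 100 kb (2.50%). No paired analysis was possible because each treatment has 1 pooled list, and for the same reason no replicate could be left out.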

Other observations

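The fold ranks the CDKN1A intron 1 region (31.2) and the CDKN2D intergenic region (29.0) close together in the estradiol list, at 4081 and 4441. The pileup recovered at the first was 2.23 times that at the second, and by -log10 q the ranks were 2769 and 5005. In the vehicle list the order of the 3 sites also depended on the measure: by fold CDKN1A was the lowest (5.22, against 6.22 and 6.36), and by -log10 q it was the highest (12, against 7.04 and 9). The highest pileup recovered was 400 fragments in both ligand lists, reached by 3 estradiol regions and 1 LY500307 region, and the highest near the 8 genes was 207.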
